A study of Mus musculus with 6 samples.

Results

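The 41 genes described here carry out DNA replication and mitosis, the parts of the cell cycle in which chromosomes are copied and then shared between daughter cells. They were chosen by name from the count table of 17572 genes, and all 41 were listed and passed the filter on low counts. They fall into replication licensing (9 genes), nucleotide supply and the replication fork (4), cyclins with Cdk1 and Cdkn3 (7), mitotic kinases and the spindle checkpoint (5), the anaphase ubiquitin ligase (2), kinetochore and chromosome proteins (6), spindle motors and midzone proteins (6) and transcription factors (2). The samples were skin scars of wild-type C57BL/6 mice, collected 2 weeks after surgery and profiled by RNA sequencing. In the hypertrophic scar group (HS, n = 3 libraries) the edges of a wound on the upper back were stitched to the rib cage under tension. In the normal scar group (NS, n = 3 libraries) a wound on the lower back was closed where it lay, without tension. Tension and body position differ together between the groups, so their parts cannot be told apart. Nothing in the labels ties each library to its own animal, and the spread that the p-values measure may therefore be technical.

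Before S phase, origins of replication are licensed when Cdc6 and Cdt1 load the ring-shaped helicase made of the Mcm2 to Mcm7 proteins onto DNA, and geminin (Gmnn) later blocks Cdt1 so that no origin fires again in the same cycle. Cyclin E and then cyclin A with their kinases start and carry S phase, Pcna clamps the polymerases to the template, and cyclin B with Cdk1 drives entry into mitosis, which ends when the ubiquitin ligase of anaphase, with Cdc20 and Ube2c, destroys the cyclins. Transcription of the early genes is known to depend on E2F factors, while mitotic genes are switched on later by complexes that hold B-Myb (Mybl2) and FoxM1 and that bind a promoter element called the cell cycle genes homology region (CHR), often beside CCAAT boxes. In skin, dividing cells are found mainly in the basal epidermis and in the matrix of growing hair follicles, and after wounding also in granulation tissue.

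The promoters of 3 members are shown because they hold the elements that mark the early and the late genes. Mcm7, a subunit of the licensing helicase, was 1 of the 2 genes whose difference passed the test. Cdk1 is the mitotic kinase, and Ccnb2 one of its cyclins. Each line gives 300 bases 5′ to 3′ on the strand of the gene, from 250 bases before to 50 after the annotated start, from RefSeq on build GRCm38.p6. The regions are chr5:138171834-138172133 (minus strand) for Mcm7, chr10:69352863-69353162 (minus strand) for Cdk1 and chr9:70421505-70421804 (minus strand) for Ccnb2. Capitals mark matches, on either strand, to an E2F site (TTTCCCGC, TTTCGCGC, TTTGCCGC or TTTGGCGC), to a CHR (TTTGAA or TTCGAA) or to a CCAAT box (CCAAT).
Mcm7: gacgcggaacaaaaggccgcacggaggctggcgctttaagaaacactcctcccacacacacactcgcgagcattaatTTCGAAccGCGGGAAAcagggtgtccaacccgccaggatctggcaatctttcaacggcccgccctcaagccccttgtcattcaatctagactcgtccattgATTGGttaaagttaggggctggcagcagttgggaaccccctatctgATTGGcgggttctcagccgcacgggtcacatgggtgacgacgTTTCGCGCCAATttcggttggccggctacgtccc
Cdk1: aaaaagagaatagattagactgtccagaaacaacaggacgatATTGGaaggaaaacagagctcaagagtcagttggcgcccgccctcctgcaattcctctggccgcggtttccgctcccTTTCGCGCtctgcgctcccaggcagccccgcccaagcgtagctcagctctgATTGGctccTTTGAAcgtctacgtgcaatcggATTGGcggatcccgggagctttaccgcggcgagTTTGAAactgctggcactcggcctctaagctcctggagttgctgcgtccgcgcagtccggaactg
Ccnb2: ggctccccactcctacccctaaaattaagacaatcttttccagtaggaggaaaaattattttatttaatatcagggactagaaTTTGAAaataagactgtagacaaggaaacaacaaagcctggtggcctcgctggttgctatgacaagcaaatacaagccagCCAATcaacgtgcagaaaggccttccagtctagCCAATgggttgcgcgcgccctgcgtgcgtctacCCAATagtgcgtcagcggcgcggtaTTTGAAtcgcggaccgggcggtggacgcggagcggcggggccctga
The Mcm7 window holds 2 E2F matches, 1 CHR match and 3 CCAAT matches. The Cdk1 window holds 1 E2F, 2 CHR and 3 CCAAT matches, and the Ccnb2 window 2 CHR and 3 CCAAT matches with no E2F match. The promoter table matched 33 of the 41 genes, with 35 windows. Among 21 windows of the mitotic genes, 17 held a CHR match (81%) and 1 an E2F match (4.76%). Among 13 windows of the licensing, fork, nucleotide and cyclin E genes, 2 held a CHR match (15.4%) and 6 an E2F match (46.2%). Of all 32851 windows of this length in the table, 19.2% held a CHR match, 2.26% an E2F match and 37.4% a CCAAT match, the last against 77.1% of the members' windows. In 1 member window, that of Mcm7, an E2F match overlapped a match to another motif, a CCAAT box. The median log2 fold change between HS and NS was -0.32 for 18 genes with a CHR match and -0.32 for 16 with a window that lacks one. It was -0.41 for 7 genes with an E2F match and -0.32 for 27 without. These splits are descriptions, and no test between them was made. Mcm7, with 2 annotated starts, stands on both sides of the CHR and E2F splits.

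All 41 genes had a lower fitted level in HS than in NS, by small amounts, and only Foxm1 and Mcm7 passed the test. The log2 fold changes (HS over NS) ran from -1.02 for Tyms to -0.13 for Bub1, with a median of -0.32, beside a median of -0.01 over all 14513 genes tested. A fitted value below 0 was found for 51.3% of all tested genes. Of all tested genes, 8.85% were called, 2.51% as lower, beside 2 of the 41 here. No member was called higher, a direction called for 6.33% of all tested genes. DESeq2 called 5 of the 41 lower, beside 5.66% of all tested genes. An unadjusted p below 0.05 in the lower direction was found for 10 of the 41 genes and for 11.1% of all tested genes. The 3 HS values lay below all 3 NS values for 13 of the 41 genes and for 15.2% of all tested genes. Calls were made with edgeR (quasi-likelihood test, p-values adjusted by Benjamini-Hochberg over all 14513 genes, threshold 0.05). Levels are CPM, the counts of a gene relative to a common library size after TMM scaling.

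The 3 HS libraries differed among themselves, and HS replicate 1 stood lowest. It was the lowest of the 6 libraries for 40 of the 41 genes (25.1% of all tested genes), Tyms being the exception, and lay below every NS library for 40, against 36.8% of all tested genes. HS replicate 3 lay below every NS library for 31 genes (33.5% of all tested genes), and HS replicate 2 for 15 (28.6% of all tested genes). The median log2 difference of the members from the NS mean was -0.70 in HS replicate 1, -0.05 in HS replicate 2 and -0.27 in HS replicate 3, and between -0.05 and 0.06 in the NS libraries. In 36 of the 41 genes the order within HS was replicate 1, then 3, then 2 from low to high, an order seen in 24.3% of all tested genes. Without HS replicate 1 the median log2 fold change was -0.16, 39 genes were below 0 (50.9% of all genes tested in that fit), and Bub1 (0.053) and Ndc80 (0.024) were above it. In that fit 1 of the 41 genes was called lower, Foxm1, against 2.34% of all genes tested. Without HS replicate 2 the median was -0.48, and 20 of the 41 genes were called lower, against 8.49% of all genes tested in that fit.

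**Figure D1:**
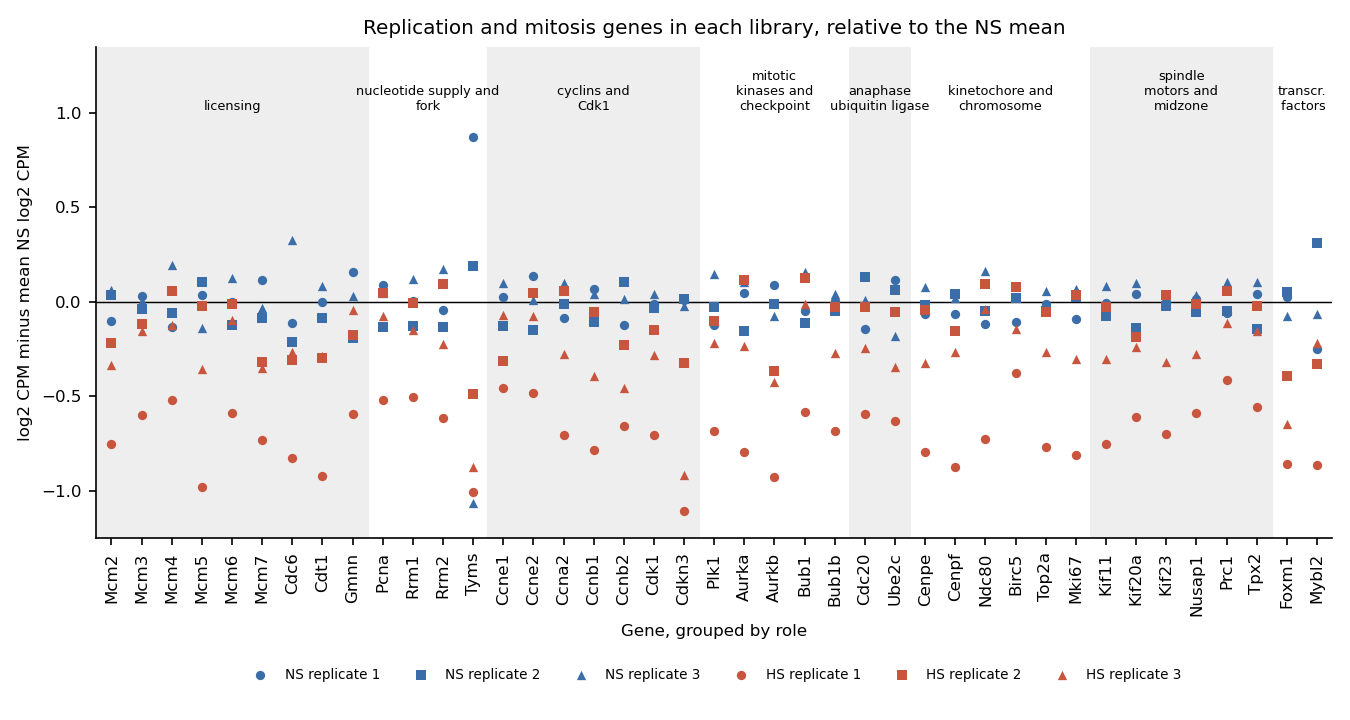
Each column is 1 gene and each point 1 library, as log2 CPM minus the mean log2 CPM of the 3 NS libraries; circles, squares and triangles are replicates 1, 2 and 3, blue NS and red HS. HS replicate 1 (red circles) is lowest for 40 of the 41 genes, while HS replicate 2 (red squares) lies mostly among the NS libraries.

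The summed level of the 41 genes was 2184, 3442 and 2965 CPM in HS replicates 1 to 3 and 3480, 3440 and 3687 CPM in NS replicates 1 to 3. HS replicate 2 thus lay just above NS replicate 2, and the groups overlapped. Of all counts in a library, the members took between 0.208% and 0.344% in HS and between 0.351% and 0.371% in NS. Both measures are relative to all RNA of a library. In whole scars, fewer dividing cells, less of these RNAs in each cell and more RNA from other cells cannot be told apart.

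Foxm1, the transcription factor that switches on genes of mitotic entry, fell in HS with the smallest p of the 41 genes. It stood at 36.7, 50.9 and 42.6 CPM in HS replicates 1 to 3 and at 67.9, 69.3 and 63.3 CPM in NS replicates 1 to 3. All HS values were below all NS values, and the largest HS value was the one of replicate 2. HS averaged 43.4 ± 7.13 CPM against 66.8 ± 3.15 CPM for NS (mean ± SD, n = 3 each), a log2 fold change of -0.62 ± 0.126 (SE) at an edgeR adjusted p of 0.0225. Without HS replicate 1 the fall was -0.52 and still passed (edgeR adjusted p = 0.0221). Without HS replicate 3, NS replicate 1, NS replicate 2 or NS replicate 3 it did not pass (edgeR adjusted p = 0.0890, 0.0961, 0.109 and 0.0796). Over all genes, those fits made between 25 and 148 calls, beside 1284 with every library. The gene lies on chromosome 6 (128362967 to 128376146, mm10). With all annotated isoforms merged, its exons overlap those of Tex52 and Gm44596 on the same strand, so its counts are less certain there.

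Mybl2, which encodes B-Myb, the partner of FoxM1 in mitotic transcription, was 13.1, 19.1 and 20.6 CPM in HS and 20.2, 29.7 and 22.95 CPM in NS. HS replicate 3 overlapped the lowest NS library, and the log2 fold change of -0.46 ± 0.210 did not pass (edgeR adjusted p = 0.1982). Of the 2 transcription factors, Foxm1 passed the threshold and Mybl2 did not.

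Among the licensing genes, Mcm7 fell and the other 8 were lower without passing, with log2 fold changes from -0.48 to -0.18. Mcm7 was 54.8, 72.9 and 71.3 CPM in HS and 98.6, 85.9 and 89.0 CPM in NS. The groups did not overlap, and the highest HS library was again replicate 2. The log2 fold change was -0.46 ± 0.122 at an edgeR adjusted p of 0.0486, close to the threshold, and it did not pass in limma-voom (adjusted p = 0.0568), without the robust step of the edgeR fit (adjusted p = 0.0527), or without any 1 library other than HS replicate 2 (edgeR adjusted p between 0.0621 and 0.170). Mcm7 lies on chromosome 5 (138164583 to 138172422, mm10). With all annotated isoforms merged, its exons overlap those of Cops6 and Ap4m1 on the other strand. They also overlap the microRNA genes Mir25 and Mir93 on the same strand. Another annotated gene, Gm5487, shares a near-identical stretch of 2157 bases with Mcm7. The counts of Mcm7 are therefore less certain than those of the other Mcm genes.

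Mcm2, another helicase subunit, was 37.0, 53.6 and 49.4 CPM in HS and 58.2, 63.9 and 65.1 CPM in NS. These values did not overlap, but the log2 fold change of -0.42 ± 0.139 did not pass (edgeR adjusted p = 0.0905). The other helicase subunits differed less clearly. Mcm3 had a log2 fold change of -0.28 with no overlap, and Mcm4 (-0.18), Mcm5 (-0.41) and Mcm6 (-0.21) overlapped between the groups. The loading factors Cdc6 (-0.47) and Cdt1 (-0.48) had no overlap, at an unadjusted p of 0.0516 and 0.0400. Gmnn, the inhibitor of Cdt1, was 12.03, 16.1 and 17.7 CPM in HS and 20.3, 15.9 and 18.6 CPM in NS. Its HS replicates 2 and 3 both lay above NS replicate 2 (log2 fold change -0.26 ± 0.185, edgeR adjusted p = 0.4042).

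The genes of nucleotide supply and the fork were the closest to NS, apart from the poorly counted Tyms. Pcna, the sliding clamp, was 105, 156 and 143 CPM in HS and 160, 137 and 156 CPM in NS. Replicates 2 and 3 of HS lay within the NS range, and the log2 fold change of -0.17 ± 0.142 did not pass (edgeR adjusted p = 0.4982). The subunits of ribonucleotide reductase, which makes deoxynucleotides, had overlapping groups, with log2 fold changes of -0.21 for Rrm1 and -0.23 for Rrm2. Tyms, the thymidylate synthase, was read 30, 37 and 34 times in HS replicates 1 to 3, and 100, 56 and 27 times in NS replicates 1 to 3. Its log2 fold change was the lowest of the members, -1.02 ± 0.522, but NS replicate 3 lay below every HS library and the difference did not pass (edgeR adjusted p = 0.2522). Stretches of its transcripts matched 11 other annotated genes nearly identically, among them Tyms-ps, so its counts are uncertain.

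Cyclins, Cdk1 and Cdkn3 were lower in HS in all 7 cases without passing. Ccne1, a cyclin E that starts S phase, was 8.16, 9.05 and 10.7 CPM in HS and 11.5, 10.3 and 12.1 CPM in NS. HS replicate 3 was the highest HS value here, unlike in most members, and lay above NS replicate 2 (log2 fold change -0.28 ± 0.184, edgeR adjusted p = 0.3706). Ccne2, the other cyclin E, had a log2 fold change of -0.16, and Ccna2, cyclin A of S phase and early mitosis, -0.28, with exons that overlap Exosc9 on the other strand. Cdk1 was 36.7, 54.0 and 49.2 CPM in HS and 59.4, 58.5 and 61.7 CPM in NS. The NS libraries lay close together and above all of HS, yet the log2 fold change of -0.36 ± 0.139 did not pass (edgeR adjusted p = 0.1363).

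Ccnb1, the main cyclin B, was 54.9, 91.2 and 72.1 CPM in HS and 99.3, 87.9 and 97.4 CPM in NS. HS replicate 2 lay above NS replicate 2 (log2 fold change -0.38 ± 0.167, edgeR adjusted p = 0.1918), and 4 other annotated genes share near-identical stretches with Ccnb1. Ccnb2 was 27.5, 37.0 and 31.7 CPM in HS and 39.9, 46.8 and 43.9 CPM in NS. This cyclin did not overlap between the groups and came nearer to the threshold (log2 fold change -0.44 ± 0.134, edgeR adjusted p = 0.07276). Cdkn3, a phosphatase that acts on cyclin-dependent kinases, was 4.25, 7.40 and 4.87 CPM in HS and 9.31, 9.37 and 9.12 CPM in NS. Its NS libraries were nearly equal, and its log2 fold change of -0.75 ± 0.246 was the second lowest of the members (edgeR adjusted p = 0.08777).

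**Figure D2:**
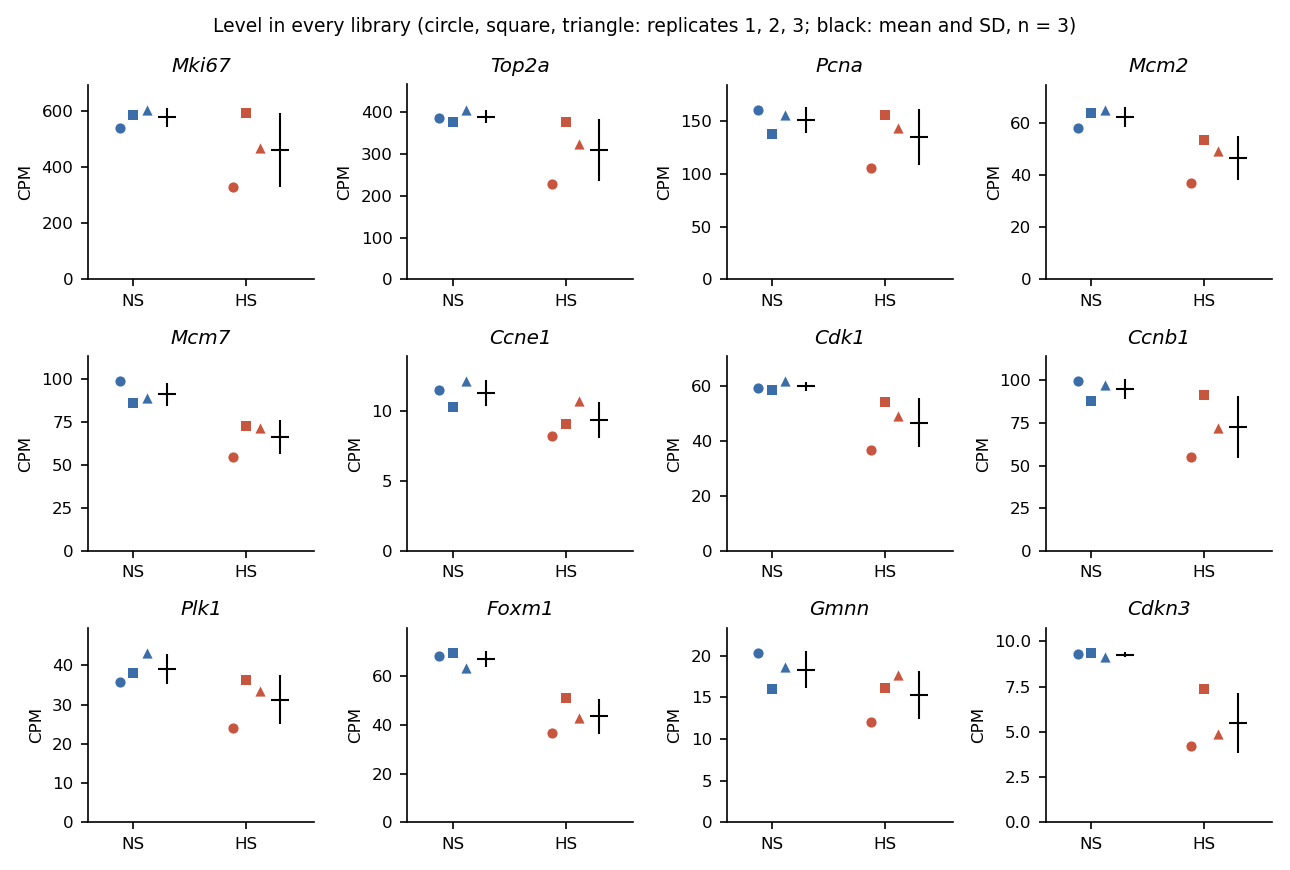
CPM of 12 members in every library; each panel has its own vertical axis from 0, colours mark the groups and the black bars give mean and SD (n = 3). HS replicate 1 is the lowest point in each panel, and Mcm2, Mcm7, Cdk1, Foxm1, Cdkn3 and Top2a do not overlap between the groups, with HS replicate 2 just under NS replicate 2 for Top2a (375 and 376 CPM).

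Of the mitotic kinases, Aurkb, the kinase of the chromosomal passenger complex, differed most. It was 25.1, 37.1 and 35.6 CPM in HS and 50.8, 47.4 and 45.4 CPM in NS. The groups stood clear of each other, and the log2 fold change of -0.56 ± 0.152 did not pass (edgeR adjusted p = 0.0539), while it passed with DESeq2, with no filter on low counts and when libraries were scaled by their totals alone. Plk1, the polo-like kinase of mitotic entry and spindle assembly, was 24.2, 36.3 and 33.5 CPM in HS and 35.8, 38.1 and 43.2 CPM in NS. HS replicate 2 lay above NS replicate 1 (log2 fold change -0.32 ± 0.161, edgeR adjusted p = 0.2461). Aurka, the kinase of the spindle poles, had a log2 fold change of -0.26 and Bub1b, a protein of the spindle checkpoint, -0.31. Bub1, the checkpoint kinase, was the member nearest to no difference, at 29.7, 48.7 and 44.3 CPM in HS and 43.2, 41.2 and 49.9 CPM in NS (log2 fold change -0.13 ± 0.178, edgeR adjusted p = 0.6892).

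The partners of the anaphase ubiquitin ligase, Cdc20 and Ube2c, had log2 fold changes of -0.28 and -0.33, with overlapping groups. Mki67, the gene of the Ki-67 antigen used to stain dividing cells, was 329, 593 and 469 CPM in HS and 542, 588 and 605 CPM in NS. HS replicate 2 lay above 2 of the 3 NS libraries, and the log2 fold change of -0.32 ± 0.190 did not pass (edgeR adjusted p = 0.3280). Top2a, the topoisomerase that untangles chromosomes, was 228, 375 and 324 CPM in HS and 386, 376 and 405 CPM in NS. The groups touched without crossing (log2 fold change -0.33 ± 0.163, edgeR adjusted p = 0.2393). At the kinetochore, where chromosomes join the spindle, Cenpe (-0.36) and Cenpf (-0.40) had larger differences than Ndc80 (-0.19), each with an SE of 0.170 to 0.211, and the passenger protein gene Birc5 had one of -0.14 with overlap, at 32.1, 44.0 and 37.8 CPM in HS and 38.7, 42.4 and 44.3 CPM in NS. Among the 6 spindle motors and midzone genes the log2 fold changes ran from -0.34 for Kif20a, a motor of cytokinesis, to -0.15 for Prc1, which bundles midzone microtubules.

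By role, the median log2 fold change was -0.41 for licensing, -0.22 for nucleotide supply and fork, -0.36 for cyclins with Cdk1 and Cdkn3, -0.31 for the kinases and checkpoint, -0.30 for the anaphase ligase, -0.33 for kinetochore and chromosome genes and -0.29 for spindle genes, and -0.54 for the pair of transcription factors. No test between roles was made.

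**Figure D3:**
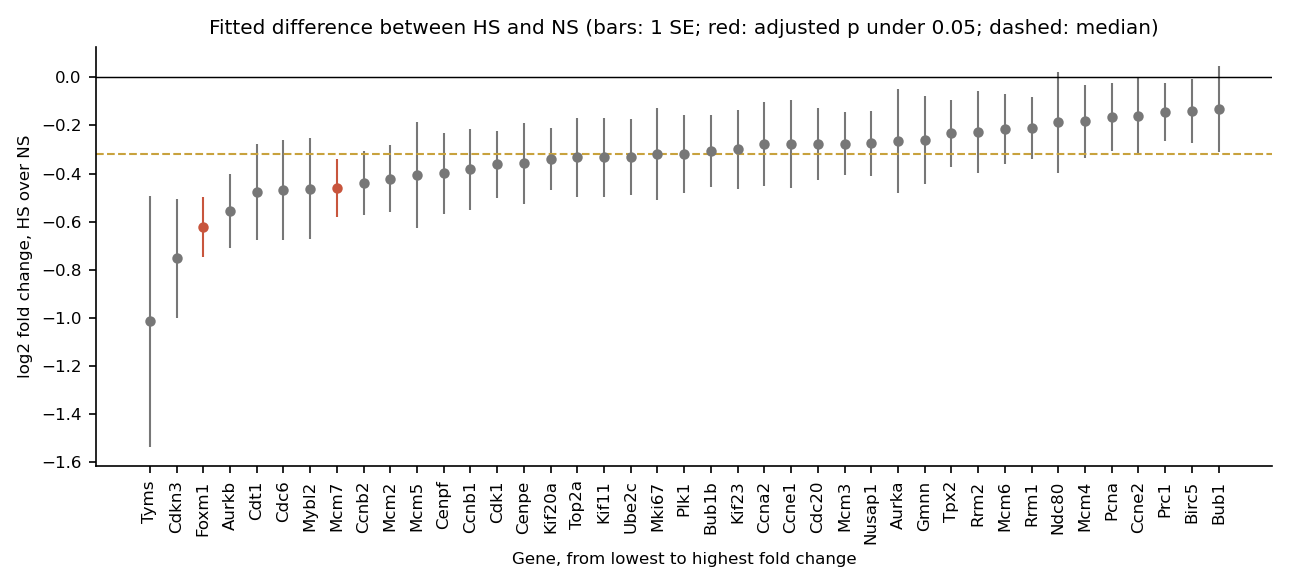
Fitted log2 fold change of each member, HS over NS, with 1 SE, ordered from lowest to highest. All 41 values lie below 0, and the called genes Foxm1 and Mcm7 (red) are not the lowest values, since Tyms and Cdkn3 with larger SEs lie below Foxm1.

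Compared per length, the RNAs of the members stood at different levels in NS. In CPM per kilobase of annotated exon (all isoforms merged), Pcna stood highest at 63.0 ± 5.07 and Mki67 next at 57.5 ± 3.26 (SD, n = 3), whose ranges of mean ± SD overlap. Top2a at 43.2 ± 1.63 and Ccna2 at 38.5 ± 2.55 followed. Foxm1 held rank 27 of 41, at 11.6 ± 0.547 in NS and 7.55 in HS, and Mcm7 was at 20.6 ± 1.496 in NS and 14.98 in HS. The lowest levels per kilobase in NS were those of Ndc80 (3.48 ± 0.357) and Tyms (0.446 ± 0.270), the latter over a merged exon length of 6089 bases.

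Other genes of the same processes, from lists chosen with earlier results of these data known, had mostly lower values in HS too. Of 48 further replication genes tested, 44 had fitted values below 0, 1 was called lower and none higher, and the log2 fold changes had a median of -0.24. The called gene was Tk1, the thymidine kinase of S phase, at 21.6, 33.7 and 28.1 CPM in HS and 39.3, 45.5 and 44.8 CPM in NS (log2 fold change -0.64 ± 0.163, edgeR adjusted p = 0.0439). Of 71 further mitosis genes, 68 were below 0 and 2 were called lower, with a median of -0.33. Of all tested genes, 51.3% were below 0 and 2.51% were called lower, so the calls in both lists were near the general share. Incenp, the scaffold of the chromosomal passenger complex that holds Aurkb, was 56.7, 61.1 and 65.3 CPM in HS and 81.0, 76.8 and 76.3 CPM in NS (log2 fold change -0.35 ± 0.0900, edgeR adjusted p = 0.0433). Cdca3, a trigger of mitotic entry, was 32.9, 47.0 and 42.8 CPM in HS and 59.0, 67.6 and 54.3 CPM in NS (log2 fold change -0.56 ± 0.146, edgeR adjusted p = 0.0461). In Tk1, Incenp and Cdca3 all HS values lay below all NS values, as in 15.2% of all tested genes. With limma-voom Incenp and Cdca3 did not pass (adjusted p = 0.0520 and 0.0549). Neither list kept a call without HS replicate 1, where the medians were -0.09 and -0.20, or without any other 1 library except HS replicate 2. In the fit without HS replicate 2, 9 and 30 genes were called lower, against 8.49% of all genes tested there.

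Genes of cycle entry and its inhibitors went both ways. Of 46 tested, 32 had fitted values below 0, 1 was called higher and 1 lower, with a median log2 fold change of -0.14. Of all tested genes, 51.3% had fitted values below 0, 6.33% were called higher and 2.51% lower. Cdkn1c, which encodes the inhibitor p57 of cyclin-dependent kinases, rose in HS. It was 49.6, 22.0 and 37.3 CPM in HS and 11.6, 12.6 and 14.5 CPM in NS. All HS libraries lay above NS, with HS replicate 1 the highest and HS replicate 2 the lowest, the reverse of their order in the replication and mitosis genes (log2 fold change 1.49 ± 0.276, edgeR adjusted p = 0.0204; 0.0774 to 0.102 without HS replicate 3 or any 1 NS library). Cdkn1a, which encodes the inhibitor p21, a target of p53, fell. It was 155, 179 and 156 CPM in HS and 199, 226 and 200 CPM in NS (log2 fold change -0.35 ± 0.0926, edgeR adjusted p = 0.0485). This call was not kept without any 1 library other than HS replicate 2, nor with the size factors of DESeq2 in edgeR (adjusted p = 0.05003), without the robust step (0.0538) or with limma-voom (0.0575).

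The histone genes, whose replication-dependent members are transcribed in S phase, did not share the direction of the members. Of 61 histone genes listed, 13 passed the filter on low counts, 10 of them with fitted values above 0, and none was called (median log2 fold change 0.23; 0 of 13 had an unadjusted p below 0.05 in edgeR's test). The smallest p belonged to Hist1h1d, a linker histone at 1.13, 0.891 and 2.53 CPM in HS and 0.481, 0.288 and 1.08 CPM in NS (log2 fold change 1.28 ± 0.658, edgeR adjusted p = 0.252), and to Hist3h2ba (0.74 ± 0.579, edgeR adjusted p = 0.455). The best counted, Hist1h1c, chosen after its values were seen, was 59.1, 71.4 and 76.1 CPM in HS and 53.1, 74.6 and 70.9 CPM in NS. Near-identical copies are common in this family, so single histone genes are uncertain.

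**Figure D4:**
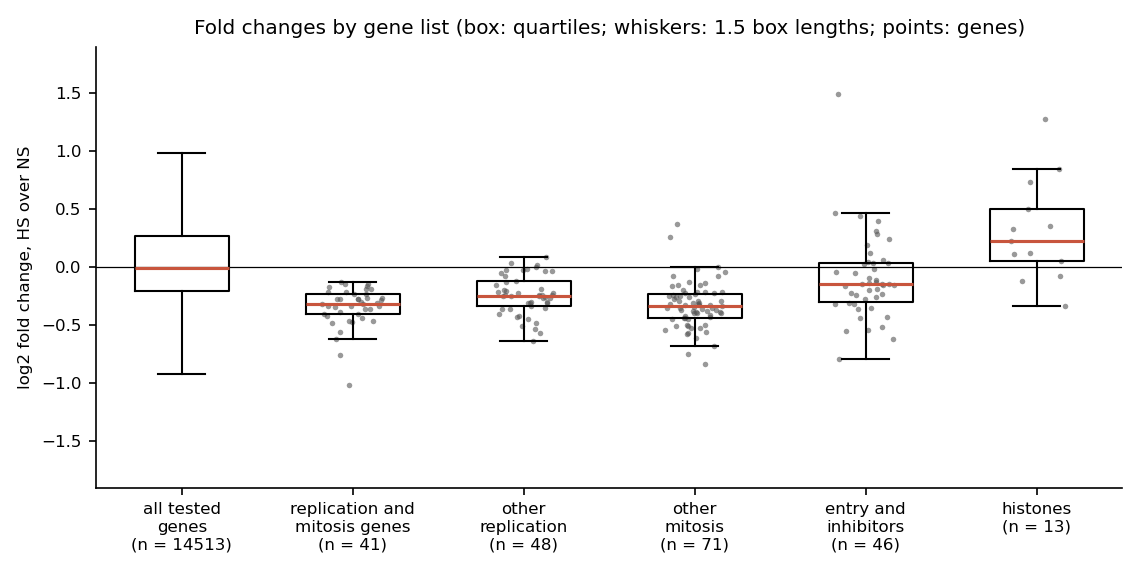
Log2 fold change (HS over NS) of all 14513 tested genes, of the 41 members and of the further lists; boxes give the quartiles, whiskers reach to 1.5 box lengths, and points are single genes where a list has under 200. Members and the further replication and mitosis genes lie mostly below 0 (medians -0.32, -0.24 and -0.33), while the histones lie mostly above it (0.23).

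Marker lists of other cell types differed between the libraries beside the members. Of all tested genes, 6.33% were called higher and 2.51% lower. The keratins of skin were high in every library, with Krt5 at 1931 to 2328 CPM in HS and 2678 to 3102 CPM in NS. Of 11 hair matrix, shaft and root sheath genes tested, all had fitted values below 0 and 3 were called lower (Krt71, Hoxc13 and Dlx3), and their summed level was 12453 to 15333 CPM in HS and 17537 to 20663 CPM in NS. Of 5 keratinocyte genes 1 was called lower, Krt5, and the sum was 13456 to 22113 CPM in HS and 20244 to 28503 CPM in NS. Krt14 alone of these 5 had a fitted value above 0 (log2 fold change 0.22). It was 1508, 2314 and 2727 CPM in HS replicates 1 to 3 and 1602, 1970 and 2053 CPM in NS replicates 1 to 3. The call of Krt5 (edgeR adjusted p = 0.0407) was not kept without any 1 library other than HS replicate 2 (edgeR adjusted p between 0.0515 and 0.171). Of 4 keratinocyte genes of the wound edge, 2 were called higher, Krt6b and Krt16, and the sum was 1467, 3487 and 4277 CPM in HS replicates 1 to 3 and 1276 to 1455 CPM in NS. Krt17, of the same list, went the other way without passing (log2 fold change -0.40, edgeR adjusted p = 0.0935). Of 8 fibroblast genes 7 were called higher, with sums of 27710 to 58228 CPM in HS and 11519 to 14947 CPM in NS. All 5 endothelial genes were called higher (257 to 431 CPM in HS, 144 to 154 CPM in NS), as were 3 of 4 neutrophil genes (102 to 349 CPM in HS, 13.4 to 20.9 CPM in NS, with Retnlg at 0 counts in every NS library), while none of 3 macrophage genes passed in edgeR, each at an unadjusted p below 0.05 (710 to 2027 CPM in HS, 415 to 552 CPM in NS). The part of these shifts in the lower values of the members was not tested.

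**Figure D5:**
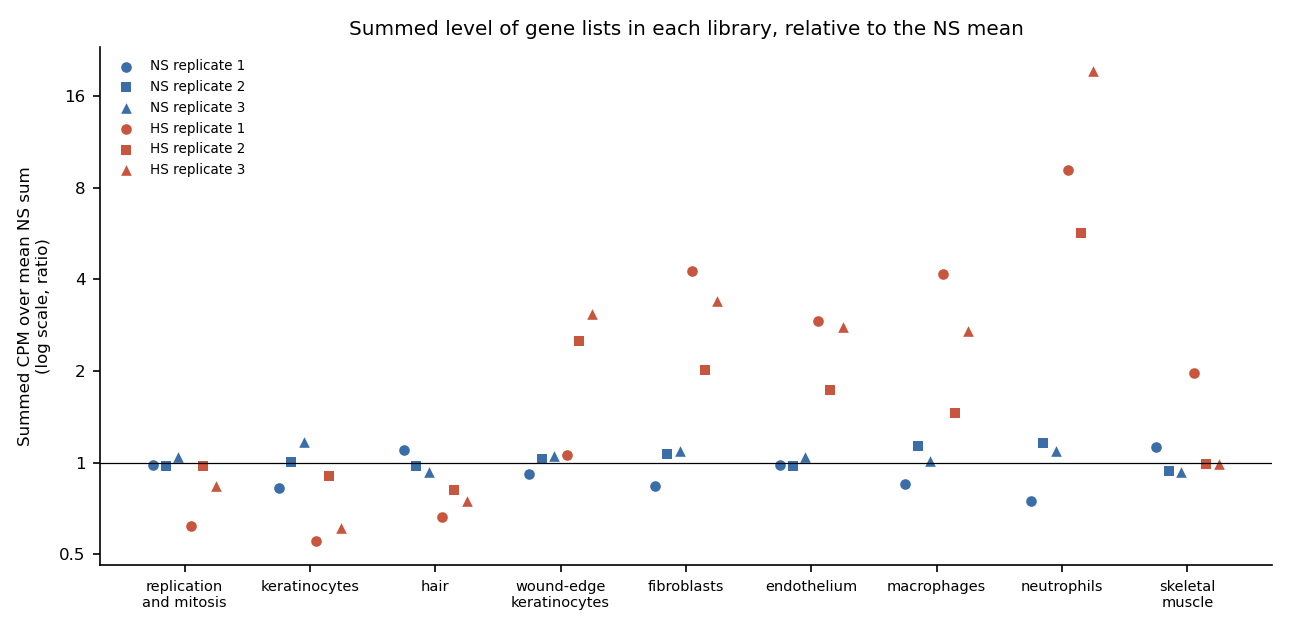
Summed CPM of the members and of marker lists in each library, divided by the mean NS sum, on a log axis; blue NS, red HS, and circle, square and triangle for replicates 1, 2 and 3. HS replicate 1 has the lowest ratio for the members (0.618) and for the hair and keratinocyte lists (0.661 and 0.551). Its ratio is the highest for fibroblasts (4.25), macrophages (4.17), endothelium (2.92) and skeletal muscle (1.96). For neutrophils and wound-edge keratinocytes, HS replicate 3 has the highest ratio (19.5 and 3.09).

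HS replicate 1, where the members were lowest, also held the most fibroblast, macrophage, endothelial and skeletal muscle RNA of the HS libraries by these lists. HS replicate 2, where the members were at the NS level, held the least fibroblast, macrophage, endothelial and neutrophil RNA. The most neutrophil and wound-edge keratinocyte RNA was in HS replicate 3. The skeletal muscle sum was 8547 CPM in HS replicate 1 and between 4063 and 4901 CPM in the other 5 libraries. Set against single keratins, the members gave different pictures. For each 100 CPM of Krt5, a keratin of basal epidermis and follicle, their sum was 113, 148 and 147 CPM in HS replicates 1 to 3 and 130, 114 and 119 CPM in NS replicates 1 to 3, so that the groups overlapped and 2 HS libraries were above all NS libraries. For each 100 CPM of Krt14, the partner keratin of Krt5, the sum was 145, 149 and 109 CPM in HS and 217, 175 and 180 CPM in NS, with every HS library below NS. The divisors themselves differed between the groups. Krt5 was lower in every HS library than in NS, while Krt14 in HS replicates 2 and 3 was above every NS library.

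Across the 6 libraries, genes outside all these lists whose log2 CPM followed the standardised mean of the members closely included Ctnnb1, Yap1, Pla2g4e and Atad2 (Pearson r between 0.994 and 0.997), a description over 6 points. HS replicate 1 was the lowest library for each of these 4, which follows from choosing them by likeness to the members. None of them was called between HS and NS. Among the members themselves Tyms followed the mean least (r = 0.447), then Ccne1 (0.788) and Mybl2 (0.801).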

How the data were processed

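RNA sequencing measured 3 HS and 3 NS scar libraries, grouped and numbered by their titles. Ribosomal RNA was removed and 150 bp paired ends were read, per the labels' protocols. The authors' deposited table held raw counts for each gene. The submitters' processing notes name cutadapt 1.9.3, HISAT2 2.0.4, HTSeq 0.9.1, edgeR and build mm10; whether counting used strand is not stated there. The table's 6 normalized columns were left out.

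Library totals ran from 20375395 to 27859889 counts. No library copied another (chi-square per gene 14.2 to 106.8 within groups). In R 4.3.3, edgeR 4.0.16 filtered genes (filterByExpr, minimum count 10; 14513 kept, 3059 removed), scaled libraries by TMM and compared HS with NS by a robust quasi-likelihood fit. The fit was tested on simulated data. Alternatives included limma-voom (limma 3.58.1) and DESeq2 1.42.0. Log2 CPM per library used a prior count of 2. Positions and merged exon lengths came from GENCODE on mm10. Near-identical means at least 300 bases at 95% identity or more; 10 of the 41 members had such a stretch in another gene, and exons of 11 overlapped another gene.

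Members and lists were chosen with earlier results of these data known. By rule, values in every library are given for 10 set genes, each called member, the 2 lowest and 2 highest fold changes, and the called genes of each further list. Mybl2, Aurkb, Ccnb2, Hist1h1c and the keratin ratios were chosen after their values were seen. Of the 5 genes outside the lists most like the members, 1 is not reported here.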

Additional observations from a re-analysis of the deposited data

How the results depend on the processing

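The count of called members was 2 with all libraries. It was 1 with the replicate block, with limma-voom and without the robust step, 5 with DESeq2 (Mcm7, Ccnb2, Cdkn3, Aurkb and Foxm1, where 5.66% of all genes were called lower), and 2 or 3 under the other scalings and filters. Leaving out 1 library gave between 0 and 20 called members (0 without HS replicate 3 or any NS replicate, 1 without HS replicate 1, 20 without HS replicate 2) and between 25 and 3257 called genes over the table, against 1284; DESeq2 called 2435. The cause was not tested. The fits with 5 libraries leave 1 group with 2 samples. The median log2 fold change of the members stayed between -0.48 and -0.16, and every member stayed below 0 in all settings, except Bub1 (range -0.28 to 0.053) and Ndc80 (range -0.35 to 0.024) above it without HS replicate 1. With no factor beyond the library total the median of all genes was -0.07, that of the members -0.37, and 61.4% of calls were higher in place of 71.6%. Whether same-numbered HS and NS libraries belong together is not known. Their deviations correlated at 0.018, 0.0133 and 0.036, and those of the other pairs between -0.039 and 0.0146. With 3 libraries in each group these values cannot decide it. The replicate block left 1001 calls over the table. Of the calls of Foxm1, Mcm7, Tk1, Incenp, Cdca3, Cdkn1a, Cdkn1c and Krt5, it ended those of Mcm7 (edgeR adjusted p = 0.0837), Incenp (0.0886), Cdkn1a (0.0590) and Krt5 (0.0827). Tyms, at 27 to 100 counts per library, had the fewest counts of the members and the largest SE, 0.522.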
